A study of Mus musculus with 9 samples.

Results

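Transcript models predicted by RefSeq from aligned evidence, and matched to no other kind of row, formed a large share of the rows in the deposited count table. The rows described here carried the accession prefix XR_, which RefSeq gives to predicted noncoding transcripts, and belonged to a gene without any NM_, XM_ or NR_ row in the same table, or matched no gene at all. A summed count of 20 or more over the 9 libraries was required. Of 107384 rows, 25981 were XR rows and 22505 met the rule on prefix and gene, of which 6174 had a summed count of 0 and 7058 a summed count above 0 but under the threshold, leaving 9273 members. The 3 rows just inside the threshold had a summed count of 20, and the 3 rows just outside had 19.973, 19.984 and 19.995. An accession match to the RefSeq gene table (assembly GRCm38.p6) named 4913 members, from 3784 genes, and left 4360 unnamed.

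All libraries came from the cytoplasmic fraction of cortex of postnatal day 0 mice heterozygous for a Celf2 knock-in allele, p.Arg493His, written R493H in the genotype label, introduced by CRISPR/Cas9. The input and both pull-downs share that allele, so no wild-type RNA was compared. RNA immunoprecipitation (RIP) with an antibody against CELF2 gave 3 CELF2-KI RIP libraries, pull-down with non-immune IgG gave 3 IgG RIP libraries, and the cytoplasmic lysate before pull-down gave 3 input libraries. Ribosomal RNA was depleted before directional libraries were made. CELF2-KI RIP libraries held 15919600 to 20052716 counts, IgG RIP libraries 17365561 to 28773130, and input libraries 69125700 to 105116427.

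CELF2 is an RNA-binding protein that recognizes UGU-rich stretches and acts on splicing in the nucleus and on stability and translation of mRNA in the cytoplasm. An IgG pull-down captures what sticks to beads and antibody without a specific epitope, and so sets the background against which a RIP is read. Long noncoding RNAs (lncRNAs) resemble mRNAs in being capped and mostly spliced, but are on the whole less abundant and more often retained in the nucleus, and many predicted models lie in or beside protein-coding genes. A predicted model is a proposal from a pipeline, and counts assigned to one can come from an overlapping or similar transcript.

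Most named members were Gm models of lncRNAs. Of the 4913 named rows, 4825 were annotated as lncRNA, 60 as misc_RNA, 17 as transcribed pseudogene and 11 as protein coding. By symbol, 4492 rows were Gm models, 266 Rik cDNA loci, 80 LOC entries, 43 opposite-strand transcripts with the suffix os, 6 small RNA hosts and 26 others. A total of 3042 genes had 1 member row and 742 had several, up to 14. From a list of 25 well-known noncoding RNAs such as Malat1, Miat and Meg3, 23 had a row and 0 were members, since all 23 had a curated NR row. Unnamed rows had the higher summed counts, with a median of 192 against 95.5 for named rows. The accession of an unnamed row matched no gene, so noncoding variants of coding genes can be among them; of the XR rows with a gene and 20 or more counts, 2543 of 7456 (34.1%) belonged to a gene with other kinds of row. All 9 values were equal to those of another member in 117 rows.

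Start-site windows are shown for 6 named members with large differences between the pull-downs and a known strand, 4 of them inside a coding gene on its own strand. Each window is from RefSeq (GRCm38.p6) and runs from 50 bases before the annotated start, with transcription starting at base 51. Capitals mark TGTGT or TGTTT on the transcribed strand, DNA spellings of the UGU-rich words that CELF proteins are known to prefer; the search also covered the other strand, and the words may overlap. AY036118 (chr17:39898336-39898435, minus strand), Gm42092 (chr11:104073090-104073189, minus strand), Gm46548 (chr16:28645867-28645966, minus strand), Gm41284 (chr15:30502943-30503042, plus strand), Gm38837 (chr6:77605125-77605224, minus strand) and Gm33649 (chr19:22475408-22475507, plus strand) read as follows.
AY036118: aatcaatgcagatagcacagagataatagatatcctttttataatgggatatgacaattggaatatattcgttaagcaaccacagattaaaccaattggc
Gm42092: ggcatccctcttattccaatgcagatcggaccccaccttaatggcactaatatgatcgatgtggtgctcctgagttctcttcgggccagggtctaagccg
Gm46548: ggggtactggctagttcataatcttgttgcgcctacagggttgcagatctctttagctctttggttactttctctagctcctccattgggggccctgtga
Gm41284: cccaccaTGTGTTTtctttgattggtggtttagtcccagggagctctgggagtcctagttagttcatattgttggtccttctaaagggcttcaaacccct
Gm38837: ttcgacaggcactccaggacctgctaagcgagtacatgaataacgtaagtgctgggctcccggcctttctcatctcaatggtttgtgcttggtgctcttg
Gm33649: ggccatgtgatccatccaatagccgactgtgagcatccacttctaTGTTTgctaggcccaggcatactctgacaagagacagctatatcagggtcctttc

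Windows were available for 2623 of the 3784 named genes. In the first 50 transcribed bases, 359 of 2623 named genes (13.7%) held TGTGT or TGTTT, against 9.36% of 27025 genes in the table. On the other strand of the same bases the shares were 12.6% and 8.71%, close to the sense shares. In the 300-base windows, from 250 bases before to 50 after the start, the sense shares were 56.8% and 47.0%. None of the 6 windows shown held either word in its first 50 transcribed bases, which says only that these letters were absent from that stretch.

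The start windows of Gm46548 and Gm33649 also shared 20-base words with those of many other genes elsewhere in the genome. For each 300-base window, the number of other genes was counted whose windows held the same 20-base word on either strand. These genes lay on another chromosome or more than 10000 bases away, and words of low complexity were left out. This count was 29 for both Gm46548 and Gm33649, 8 for Gm41284 and 0 for AY036118, Gm42092 and Gm38837. Among named genes 1956 of 2623 (74.6%) shared no word, 455 (17.3%) shared one with 1 to 9 other genes and 212 (8.08%) with 10 or more. The last share was 1.21% among 13242 genes with NM or XM rows, where 160 genes fell in that bin. With all rows of a gene summed, the median log2 fold change of IgG RIP over input was 1.49, 1.60 and 1.76 for named genes in these 3 bins and 0.01, 0.01 and 0.54 for genes with NM or XM rows. The share of named genes called higher in IgG RIP than in input was 12.2%, 12.5% and 18.9% in these bins. For genes with NM or XM rows it was 3.58%, 4.14% and 7.50%. Only start windows were compared, and the part of shared sequence in these values was not tested. This measure was chosen after the sequences had been seen.

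Within each condition every pair of replicates differed beyond counting noise, and IgG RIP replicate 3 stood apart from the other two IgG RIPs. The row for the 45S ribosomal RNA precursor took 35.0%, 33.0% and 10.8% of the counts in IgG RIP replicates 1, 2 and 3, 0.809% to 1.76% in CELF2-KI RIPs and 0.405% to 0.797% in inputs. All levels below are CPM, meaning counts scaled to 1000000 effective protein-coding counts, a scale that the 45S row does not enter; CPM is not per length, so differences between rows are differences in reads. As a check of the tissue label, markers of excitatory neurons (5 of 5 genes with a row) summed to 728 to 870 CPM in inputs and 2 liver markers to 0.191 to 0.259. Means in CELF2-KI RIP, IgG RIP and input were 1364, 797 and 790 CPM for these neurons, 415, 246 and 294 for inhibitory neurons, 623, 581 and 992 for radial glia, 431, 329 and 377 for oligodendrocyte precursors, 93.8, 35.0 and 61.2 for microglia, 52.6, 75.1 and 113 for endothelium and 50.9, 307 and 754 for erythroid cells. The part of these cell types in the results was not tested.

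Members took more of the library in both pull-downs than in input. Named members summed to 8111, 14330 and 10480 CPM in CELF2-KI RIP replicates 1 to 3, to 24800, 25820 and 13820 in IgG RIPs, and to 4201, 5279 and 4407 in inputs. Every pull-down library lay above every input library, whereas CELF2-KI RIP and IgG RIP overlapped because IgG RIP replicate 3 lay below CELF2-KI RIP replicate 2. Mean levels were 10970 ± 3137 CPM in CELF2-KI RIP, 21480 ± 6654 in IgG RIP and 4629 ± 572.0 in input (SD, n = 3), so that the IgG RIP mean was 4.64 times and the CELF2-KI RIP mean 2.37 times the input mean. The exact two-sided permutation test gave p = 0.1 for both pull-downs over input, the smallest value that 3 against 3 libraries allow, and p = 0.2 between the pull-downs. On this scale NM and XM rows also summed higher in the pull-downs, mainly in CELF2-KI RIP. They had 1235000, 1410000 and 1312000 CPM in CELF2-KI RIPs, 1021000, 1010000 and 1035000 in IgG RIPs, and 949900, 933200 and 964800 in inputs. The same background applies to the other ratios to input in CPM.

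Unnamed members followed the same order with smaller ratios. They summed to 16610, 24180 and 20630 CPM in CELF2-KI RIPs, 32900, 32190 and 21230 in IgG RIPs, and 10470, 11400 and 11230 in inputs. Again both pull-downs were above input in all libraries and overlapped each other. Means were 20470 ± 3783, 28780 ± 6543 and 11030 ± 494.6 CPM (SD, n = 3), at 1.86 times input in CELF2-KI RIP and 2.61 times in IgG RIP. XR rows of genes that also have coding or curated rows rose less, with means 1.47 times input in CELF2-KI RIP and 1.74 times in IgG RIP.

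**Figure D1:**
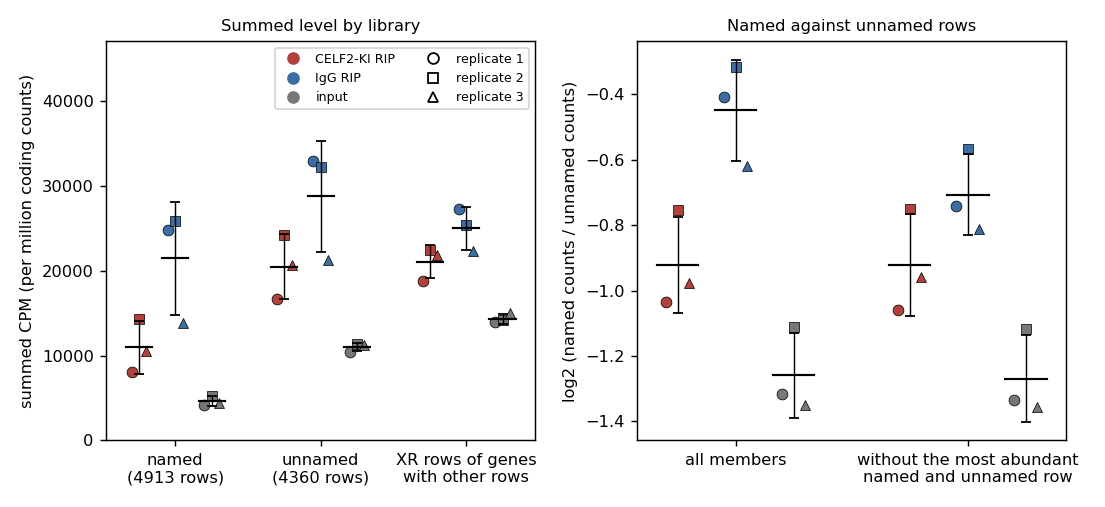
Left, summed CPM of named members, unnamed members and XR rows of other genes in each of the 9 libraries; right, log2 ratio of named to unnamed counts per library, with all members and without the most abundant row of each kind. Points are libraries, the horizontal line is the mean and the bar the SD (n = 3); inputs are lowest in every column, and IgG RIP replicate 3 lies nearest to the CELF2-KI RIPs.

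As a share of all counts in the library, named members took 0.758% ± 0.161 in CELF2-KI RIP, 1.32% ± 0.218 in IgG RIP and 0.409% ± 0.0408 in input (SD, n = 3). Unnamed members took 1.42% ± 0.163, 1.78% ± 0.115 and 0.976% ± 0.0196. On this scale, where the 45S row does enter the total, no group overlapped another, and each of the 6 comparisons had an exact permutation p of 0.1 (adjusted p = 0.1).

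Named rows gained on unnamed rows in the pull-downs. The log2 ratio of named to unnamed counts was −1.03, −0.75 and −0.98 in CELF2-KI RIPs, −0.41, −0.32 and −0.62 in IgG RIPs, and −1.32, −1.11 and −1.35 in inputs. The 3 conditions did not overlap, and IgG RIP exceeded input by 0.81, CELF2-KI RIP exceeded input by 0.34, and CELF2-KI RIP was 0.47 below IgG RIP, each with an exact permutation p of 0.1 over 3 against 3 libraries. Without the most abundant row of each kind, AY036118 and XR_105643.2, the difference between the pull-downs was −0.22 and the libraries overlapped (exact permutation p = 0.2), while CELF2-KI RIP and IgG RIP exceeded input by 0.35 and 0.56 without overlap. The ratio of typical rows gave the opposite sign between the pull-downs, since the difference of median log2 CPM (named minus unnamed) was 0.06 higher in CELF2-KI RIP than in IgG RIP, with overlap (exact permutation p = 0.5).

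The shift was seen across most members. Among named rows the median log2 fold change was 1.52 for IgG RIP over input, 1.14 for CELF2-KI RIP over input and −0.38 for CELF2-KI RIP over IgG RIP. Unnamed rows had medians of 1.28, 0.90 and −0.41. Over all 68745 rows tested the same medians were 0.24, 0.39 and −0.03, and over NM and XM rows 0.03, 0.24 and 0.00. Curated NR rows had 0.90, 0.65 and −0.40, and XR rows of other genes 0.73, 0.33 and −0.32. The log2 fold change over input was positive for 82.5% of named rows when CELF2-KI RIP was compared and 81.7% when IgG RIP was, against 59.3% and 55.9% of all rows. The comparisons share libraries, so that a low IgG RIP value lowers one median and raises another.

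**Figure D2:**
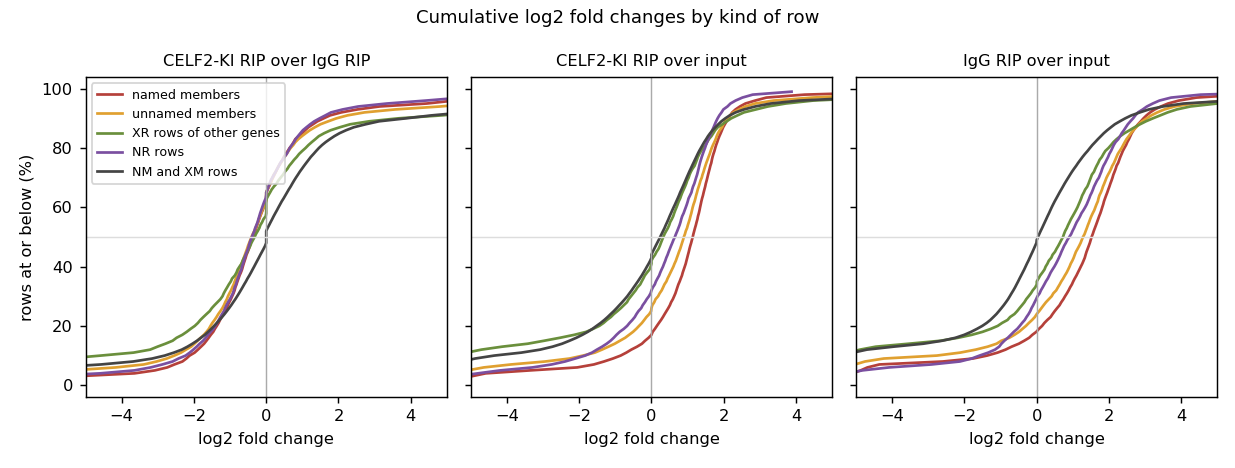
Cumulative distributions of the log2 fold change for each comparison, with the percent of rows at or below a value on the vertical axis, for named and unnamed members, XR rows of other genes, NR rows and NM and XM rows. In IgG RIP over input the named rows have the highest median, 1.52 against 0.03 for NM and XM rows, although other kinds extend further in the upper tail; in CELF2-KI RIP over IgG RIP the medians of all noncoding kinds lie below the median of 0.00 for coding rows, and the curves of both kinds of member cross that of coding rows in the lower tail.

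The shift over input grew with abundance in named rows, and in unnamed rows up to a summed count of 1000. Named rows with a summed count of 20 to 50 had a median log2 fold change of 0.98 for IgG RIP over input, and those of 1000 or more had 1.997; for unnamed rows the values were 0.71 and 1.42. Coding rows in the same ranges had −0.03 and −0.03, with up to 0.28 in between. Unnamed rows were highest, at 1.48, in the range of 300 to 1000. Summed counts include the IgG RIP counts, so rows high in IgG RIP tend to fall in higher ranges. At 3 counts or fewer in each library of a condition, 960 named rows (19.5%) could not be told from the counting floor in CELF2-KI RIP, 694 (14.1%) in IgG RIP and 144 (2.93%) in input.

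In IgG RIP over input, 160 members passed an adjusted p of 0.01 and a 2-fold change upward (75 named and 85 unnamed) and 5 downward (0 named and 5 unnamed). The members called higher made up 1.73% of the 9273, against 0.931% of all rows tested, and those called lower 0.0539% against 0.457%. With an unadjusted p under 0.05, 2555 members were higher (27.6%, against 14.8% of all rows) and 302 lower (3.26%, against 9.77%), 134 of the latter named. The Wald test of DESeq2 called 2273 higher and 70 lower (18 of the latter named), 31.2% and 0.960% of the members it gave an adjusted p, against 11.9% and 4.74% of all such rows. When the rows of a gene were summed, 925 of 8144 entries were called higher (11.4%, against 6.05% of all 35520 entries) and 24 lower, 0.295% against 1.97%. Without IgG RIP replicate 3, the row-level test called 459 higher and 9 lower (4.95% and 0.0971%, against 2.43% and 1.08% of all rows), and without any one input it called 0 in either direction. The IgG RIP libraries all exceeded the inputs in 1817 named (37.0%) and 1372 unnamed rows (31.5%), against 18.1% of all rows.

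The most abundant named row was AY036118, an lncRNA on the minus strand at chr17:39848112-39898385 whose annotated end overlaps the 18S ribosomal pseudogene Rn18s-rs5 (chr17:39846354-39848202) by 91 bases. It had 5310, 4353 and 1887 CPM in IgG RIP replicates 1 to 3, 358.8, 428.1 and 180.0 in CELF2-KI RIPs, and 128.1, 109.3 and 99.26 in inputs. The 3 conditions were fully separated, and replicate 3 was lowest in both pull-downs. In CPM, AY036118 had the same order of replicates as the 45S row within each of the 3 conditions. Its log2 fold change was 5.10 ± 0.49 (SE) for IgG RIP over input (edgeR quasi-likelihood test, Benjamini-Hochberg adjusted p = 0.003695) and −3.58 ± 0.456 for CELF2-KI RIP over IgG RIP (edgeR adjusted p = 0.003017). The latter call was kept in 4 of 9 fits that left out 1 library. The part of ribosomal RNA in these counts was not tested.

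Gm26871, an lncRNA locus on chromosome 3 of unknown strand, came next, with 1061, 1294 and 814.3 CPM in IgG RIPs, 212.3, 259.4 and 223.4 in CELF2-KI RIPs, and 141.3, 160.3 and 121.1 in inputs. It had a CELF2-KI RIP over IgG RIP log2 fold change of −2.19 ± 0.19 (SE) (edgeR adjusted p = 0.0009321), a call kept in all 9 fits with 1 library left out. Among the 10 named rows of highest mean CPM, all 10 had every pull-down library above every input library, and all 10 were called higher in IgG RIP than in input. With 1 library left out, the calls of these rows in IgG RIP over input were kept in 3 to 6 of 9 fits. Only 1 of the 10, Gm46548, passed upward in CELF2-KI RIP over input, and 3 passed downward against IgG RIP. IgG RIP replicate 3 was the lowest IgG RIP for each of these 10 rows, and CELF2-KI RIP replicate 2 the highest CELF2-KI RIP.

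The other 8 of these rows ranged from 23.3 to 95.16 mean CPM in input. Gm19950, which overlaps Acsm1 on the opposite strand, had 560.1, 540.4 and 345.3 CPM in IgG RIPs, 196.2, 367.1 and 230.2 in CELF2-KI RIPs and 84.64, 109.3 and 91.54 in inputs; its pull-down libraries overlapped. Its log2 fold change over input was 2.34 in IgG RIP (edgeR adjusted p = 0.006204) and 1.48 in CELF2-KI RIP (edgeR adjusted p = 0.01498). Gm35439, Gm34354, Gm40780, Cep112it and 2310067E19Rik rose over input in IgG RIP by log2 fold changes of 2.47, 2.27, 3.01, 2.09 and 3.37. Cep112it is named as an intronic transcript of Cep112, the gene of a centrosomal protein.

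Among the named rows of highest mean CPM and those called lower than IgG RIP, 4 were known to lie in a coding gene on its own strand. Gm46548 lies within Fgf12, which encodes an intracellular modulator of sodium channels, and had 340.9, 431.2 and 241.8 CPM in IgG RIPs, 73.25, 136.6 and 103.9 in CELF2-KI RIPs and 31.9, 37.94 and 30.36 in inputs, without overlap of the conditions. It rose by 3.34 ± 0.30 (SE) over input in IgG RIP and by 1.65 in CELF2-KI RIP (edgeR adjusted p = 0.002879 and 0.009841). Fgf12 itself, with its rows summed, had log2 fold changes of 0.13 and −0.17. Gm41284 lies within Ctnnd2, which encodes the adhesion protein delta-catenin, and rose by 3.11 in IgG RIP (edgeR adjusted p = 0.005029), while Ctnnd2 had 0.83. Gm38837 in Ctnna2, the gene of neuronal alpha-catenin, rose by 3.64 where Ctnna2 had 0.38, and Gm33649 in Trpm3, the gene of a cation channel, rose by 3.49 where Trpm3 had 0.78.

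**Figure D3:**
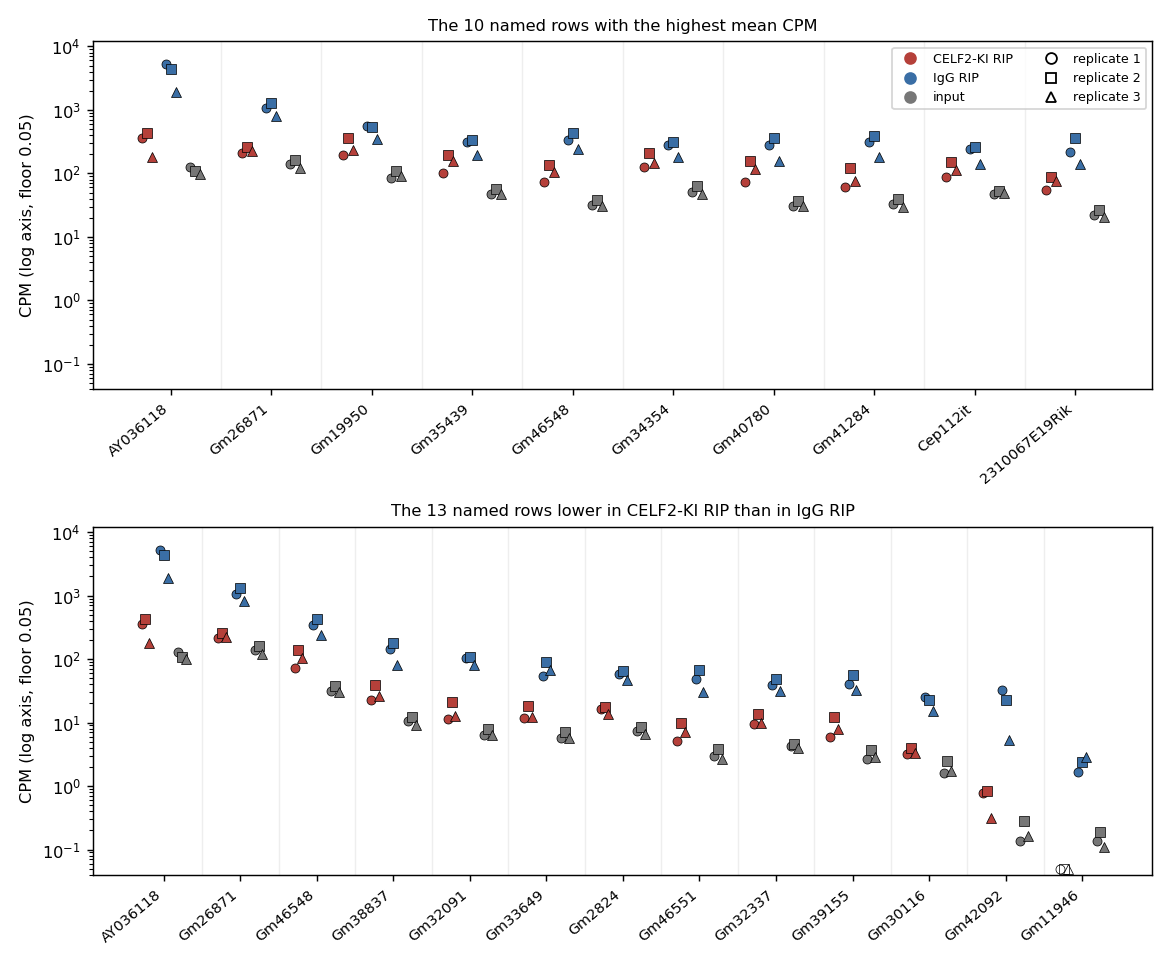
CPM on a log axis in each library for the 10 named rows with the highest mean CPM (top) and the 13 named rows called lower in CELF2-KI RIP than in IgG RIP (bottom); symbols mark replicates, and open symbols at 0.05 stand for 0. In the lower panel all IgG RIP libraries lie above all CELF2-KI RIP libraries, and the CELF2-KI RIPs lie above the inputs in 12 of 13 rows.

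Of the 5 called named rows with the largest fold rise in IgG RIP over input, 4 besides AY036118 had low levels in input, and some rows that were not called had larger fitted folds. Gm42092 had 32.52, 22.98 and 5.363 CPM in IgG RIPs, 0.7904, 0.8291 and 0.3106 in CELF2-KI RIPs and 0.1378, 0.2824 and 0.1627 in inputs, a log2 fold change of 6.65 ± 0.90 (SE) for IgG RIP over input (edgeR adjusted p = 0.007847). Gm38778 rose by 4.10, A230004M16Rik by 3.96 and Gm46551 by 3.94, with mean input levels of 1.11, 0.780 and 3.16 CPM. With 1 library left out, the call over input was kept in 1 of 9 fits for Gm42092. It was kept in 2 for Gm38778, 2 for A230004M16Rik and 3 for Gm46551.

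Position beside a coding gene was described for the named genes with strand known. A total of 159 overlapped a coding gene on the same strand, 806 on the opposite strand, 109 started within 10 kb downstream on the same strand, 109 lay head to head within 2 kb, and 1275 had none of these; for 1159 the strand was unknown, and for 167 that of the coding gene. Same-strand genes had the highest median log2 fold change of IgG RIP over input, 1.85 against 1.51 for genes with no such neighbour, and 60 of 159 (37.7%) were called higher with rows summed, against 112 of 1275 genes with none (8.78%). They were also the most abundant, with a median summed count of 557 against 87.0, so abundance and position cannot be told apart here. Their summed level was 2937 ± 917 CPM in IgG RIP, 1639 ± 477 in CELF2-KI RIP and 705 ± 181 in input (SD, n = 3).

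The coding genes around them had smaller fold changes. In 153 pairs on the same strand, the coding gene had a median log2 fold change of 0.16 for IgG RIP over input and its member 1.85, and the member was above its partner in 139. In 775 pairs on opposite strands the medians were 0.19 and 1.62, with the member above in 642. Across the 153 same-strand pairs, Pearson's r of the log2 fold changes was 0.19, given as a description since both values come from the same libraries. For CELF2-KI RIP over input the same-strand medians were 0.74 for the coding gene and 1.48 for the member.

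**Figure D4:**
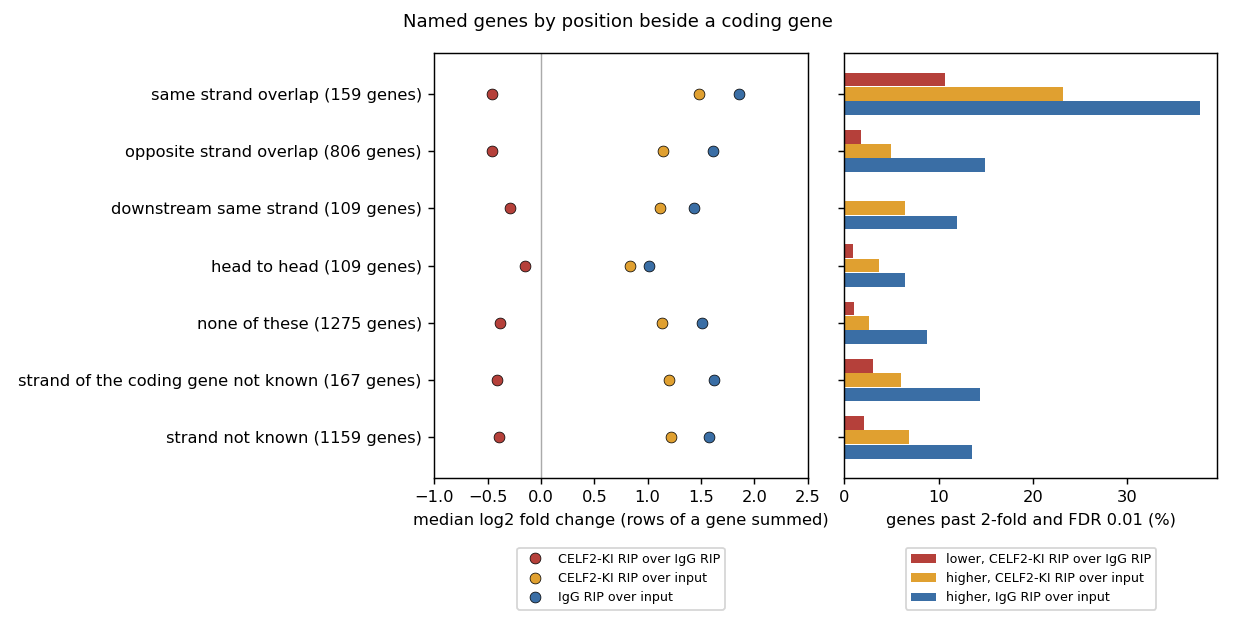
Left, median log2 fold change of named genes with their rows summed, by position beside a coding gene; right, percent of genes past 2-fold and an adjusted p of 0.01 in the direction named. Genes overlapping a coding gene on its own strand have the longest bars, 37.7% for IgG RIP over input, and head-to-head genes the lowest median, 1.02.

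Fewer members passed the test in CELF2-KI RIP over input than in IgG RIP over input. In CELF2-KI RIP over input, 46 members were called higher (13 named and 33 unnamed), 0.496% against 1.96% of all rows, and 9 lower (all unnamed), 0.0971% against 1.59%. With rows of a gene summed the counts were 413 of 8144 higher (5.07%, against 7.86%) and 30 lower (0.368%, against 6.13%). The spread of rows in the fit was large, with a common coefficient of biological variation of 1.08, so a row that was not called cannot be taken as unchanged. Downward, 51 named rows (1.04%) had an unadjusted p under 0.05, against 8.46% of all rows. DESeq2 called 1271 members higher and 61 lower (12 of the latter named), 20.5% and 0.982% of the members it gave an adjusted p, against 11.6% and 6.29% of all such rows. Whether members were called higher than input more or less often than other rows thus depended on the test. Without IgG RIP replicate 3 the edgeR test called 147 and 14, 1.59% and 0.151% against 3.27% and 2.19%. The CELF2-KI RIP libraries all exceeded the inputs in 2093 named (42.6%) and 1582 unnamed rows (36.3%), against 27.4% of all rows.

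The comparison against IgG asks for RNA held by the CELF2 antibody. A total of 17 members (1 named and 16 unnamed) passed upward, 0.183% against 2.48% of all rows, and 37 (13 named and 24 unnamed) downward, 0.399% against 1.27%. Shares of calls, here and in the other comparisons, were not matched for abundance. Of 4913 named and 4360 unnamed rows, 388 and 823 had a summed count of 1000 or more, against 25521 of 54438 NM and XM rows. With rows of a gene summed, 45 were higher and 180 lower, 0.553% and 2.21% against 6.25% and 5.63%. Without IgG RIP replicate 3 the row-level counts were 20 and 96, 0.216% and 1.04% against 2.94% and 1.62%. DESeq2 called 98 and 464, 1.58% and 7.47% of the members it gave an adjusted p, against 8.04% and 7.56% of all such rows. Libraries of CELF2-KI RIP lay wholly above those of IgG RIP in 233 named (4.74%) and 232 unnamed rows (5.32%), against 14.1% of all rows, and wholly below in 603 (12.3%) and 607 (13.9%), against 12%. Of the 16 unnamed rows called higher, 5 had 0 counts in all IgG RIP libraries, so that their folds are lower bounds only.

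The 1 named row called higher than IgG RIP was Gm40841, an lncRNA model at chr13:28396062-28421499, with 19.58, 20.74 and 19.01 CPM in CELF2-KI RIPs, 8.035, 6.626 and 7.22 in IgG RIPs and 12.81, 12.91 and 12.26 in inputs. The 3 conditions did not overlap, and IgG RIP was the lowest. Its log2 fold change was 1.44 ± 0.23 (SE) over IgG RIP (edgeR adjusted p = 0.007639) and 0.64 over input (edgeR adjusted p = 0.132). The call over IgG RIP was kept in 1 of 9 fits with 1 library left out. With rows summed, Gm34451, Gm36565, Gm39668 and LOC108168720 were called as well, and were named after their values were seen. Of these, Gm34451 had only 0.3198, 0.8467 and 0.2676 CPM in CELF2-KI RIPs, near the counting floor. It had 0 in every IgG RIP, so its fold is a lower bound only.

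Only Gm36565 and Gm39668 among named genes were higher than both controls with rows summed. Gm39668 lies within Mff, the gene of a mitochondrial fission factor, on the same strand, and had 21.99, 30.48 and 26.05 CPM in CELF2-KI RIPs, 13.39, 13.38 and 11.18 in IgG RIPs and 9.04, 9.284 and 7.599 in inputs. Its log2 fold changes were 1.05 over IgG RIP and 1.60 over input (edgeR adjusted p = 0.003332 and 0.000412). Gm36565, head to head with Igfbp3, the gene of a carrier of insulin-like growth factors, had 6.076, 14.34 and 9.469 CPM in CELF2-KI RIPs, 2.7, 3.371 and 2.221 in IgG RIPs and 2.195, 2.469 and 2.175 in inputs. It rose by 1.85 over IgG RIP and 2.12 over input (edgeR adjusted p = 0.006427 and 0.002941). The 1 named gene lower than both, the transcribed pseudogene LOC108168731, had a mean of 0.0870 CPM in CELF2-KI RIP, 5.31 in IgG RIP and 8.02 in input.

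The 13 named rows lower than IgG RIP held Gm11946, Gm42092, AY036118, Gm46551, Gm32091, Gm30116, Gm39155, Gm33649, Gm26871, Gm38837, Gm32337, Gm2824 and Gm46548. For 12 of these rows every CELF2-KI RIP lay above the inputs, and the same number were called higher in IgG RIP than in input; both comparisons use the IgG RIP libraries. Gm32091 had 103.5, 107.5 and 80.14 CPM in IgG RIPs, 11.58, 21.05 and 12.48 in CELF2-KI RIPs and 6.338, 7.95 and 6.279 in inputs, with a log2 fold change of −2.69 ± 0.28 (SE) against IgG RIP (edgeR adjusted p = 0.001489), kept in all 9 fits with 1 library left out. Calls were less stable for the other rows: Gm2824 and Gm33649 were kept in 8 of 9 such fits, Gm42092, Gm46551, Gm30116, Gm39155, Gm38837, Gm32337 and Gm46548 in 1, and Gm11946 in 0. The 1 row without CELF2-KI RIP above input was 1 of the 5 rows of Gm11946, a locus opposite Smtn, the gene of smoothelin. That row, XR_001780147.1, had 0 counts in every CELF2-KI RIP, 1.67, 2.438 and 2.824 CPM in IgG RIPs and 0.1377, 0.1911 and 0.1113 in inputs, at least 9.39-fold lower than IgG RIP at a floor of 3 counts per library. With its rows summed, Gm11946 had log2 fold changes of −2.67 over IgG RIP and −0.03 over input (edgeR adjusted p = 0.005624 and 0.9749).

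The rows called against both controls by the edgeR test were all unnamed. The CELF2-KI RIP exceeded both IgG RIP and input in 5 members and fell below both in 4, 0.0539% and 0.0431% against 0.966% and 0.841% of all rows; 0 named rows were called in either direction by the edgeR test. In both comparisons 18 and 19 named rows (0.366% and 0.387%) reached an unadjusted p under 0.05, against 5.66% and 4.77% of all rows, and DESeq2 called 12 and 8, 0.387% and 0.258% of the named rows it gave an adjusted p, against 3.1% and 3.73% of all such rows. With rows summed 13 were higher and 13 lower, 0.160% each against 3.32% and 3.49%. The lowest CELF2-KI RIP exceeded the highest of 6 controls in 146 named (2.97%) and 169 unnamed rows (3.88%), against 9.74% of all rows, and the highest fell below the lowest of the controls in 28 (0.570%) and 84 (1.93%), against 5.57%.

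XR_001783658.1 was the most abundant of the 5, with 206.2, 244.7 and 273.5 CPM in CELF2-KI RIPs, 91.11, 95.37 and 84.87 in IgG RIPs and 61.97, 68.87 and 79.49 in inputs. It rose by 1.42 ± 0.15 (SE) over IgG RIP and by 1.78 over input (edgeR adjusted p = 0.001449 and 0.0006659). XR_001778187.1 had 121.2, 173.4 and 135.8 CPM in CELF2-KI RIPs, 39.32, 44.19 and 41.27 in IgG RIPs and 53.89, 48.67 and 50.2 in inputs, a rise of 1.79 over IgG RIP (edgeR adjusted p = 0.0009769). Both calls over IgG RIP were kept in all 9 fits with 1 library left out. XR_001785116.1, XR_388414.3 and XR_001778949.1 rose by 1.31, 2.004 and 2.18 over IgG RIP, with mean CELF2-KI RIP levels of 92.4, 40.9 and 18.0 CPM, and were kept in 8, 2 and 1 of 9 such fits.

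The 4 unnamed rows lower than both differed in their level in IgG RIP. With 1 library left out, the call against IgG RIP was kept in 8 of 9 fits for XR_001785029.1 and 6 for XR_870766.1. It was kept in 3 for XR_880510.2 and 1 for XR_001783695.1. XR_001785029.1 had 0.8803, 0.4624 and 0.5324 CPM in CELF2-KI RIPs, 7.39, 5.755 and 10.33 in IgG RIPs and 63.18, 101.2 and 52.91 in inputs, and XR_880510.2 had means of 0.497, 5.37 and 39.2 CPM. Both were thus lower in IgG RIP than in input. XR_001783695.1 had 2.62 CPM in CELF2-KI RIP, with 17.1 and 15.5 in the controls. XR_870766.1 had 0 counts in every CELF2-KI RIP, 20.39, 8.123 and 6.933 CPM in IgG RIPs and 1.518, 1.666 and 2.793 in inputs, at least 48.0-fold lower than IgG RIP and 8.09-fold lower than input at the same floor.

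**Figure D5:**
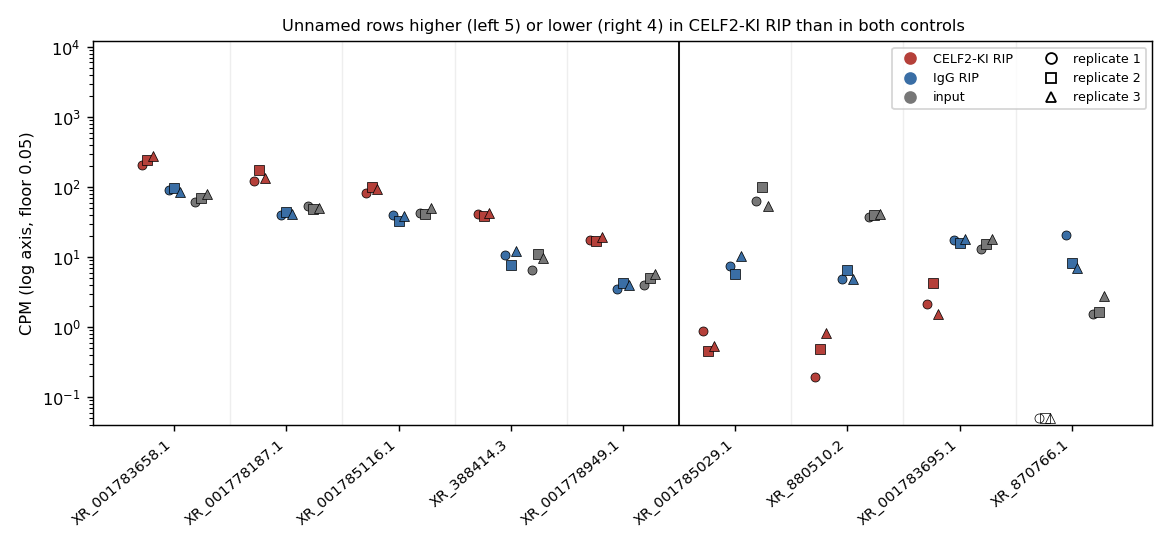
CPM on a log axis in each library for the 5 unnamed rows called higher and the 4 called lower than in IgG RIP and input alike; symbols mark replicates, and open symbols at 0.05 stand for 0. The left 5 rows have all CELF2-KI RIP libraries above the 6 control libraries, and XR_870766.1 is empty in the CELF2-KI RIPs.

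The most abundant unnamed row, XR_105643.2, was high in CELF2-KI RIP without passing 2-fold over IgG RIP. It had 474.7, 782.9 and 612.4 CPM in CELF2-KI RIPs, 345.0, 361.9 and 311.2 in IgG RIPs and 191.0, 189.1 and 195.0 in inputs, fully separated, and its log2 fold changes were 0.88 (over IgG RIP) and 1.70 (over input) (edgeR adjusted p = 0.01708 and 0.001384). XR_882104.1, XR_874998.2 and XR_881638.1 were highest in IgG RIP, at means of 476, 359 and 364 CPM against 142, 239 and 227 in CELF2-KI RIP. XR_001781562.1 varied least of these 5 rows, at 229, 281 and 171 CPM in CELF2-KI RIP, IgG RIP and input.

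Curated nuclear noncoding RNAs, listed as markers of nuclear material, also summed higher in both pull-downs. On this scale NM and XM rows were higher too, mainly in CELF2-KI RIP. Malat1, Neat1 and Meg3 (3 of 3 with a row) summed to 4969 to 6865 CPM in CELF2-KI RIPs, 4357 to 6520 in IgG RIPs and 3624 to 4201 in inputs. Mean CPM in CELF2-KI RIP, IgG RIP and input was 4426, 4561 and 3129 for Malat1 and 1345, 946 and 692 for Meg3. Neat1, a scaffold of nuclear paraspeckles, rose most over input in proportion, with means of 50.5, 75.9 and 17.2 CPM. The highest mean was in IgG RIP for Malat1 and Neat1 and in CELF2-KI RIP for Meg3. The part of nuclear RNA in the level of the members was not tested.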

How the data were processed

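RNA immunoprecipitation sequencing was measured in 9 libraries (3 CELF2-KI RIP, 3 IgG RIP, 3 input; biological replicates per the study's methods). The authors' deposited table holds estimated counts per RefSeq transcript from kallisto 0.51.1, after FastQC 0.11.9, fastp 0.23.4 and Ribodetector 0.3.1, as the methods and the submitters' processing notes give them; the genome build noted is mm10, the methods name an Ensembl transcriptome although the rows carry RefSeq accessions, and the strand setting is not given in the sources used here. Quantification of this kind divides reads between overlapping models, so single rows of a locus share reads, and overlapping or antisense models are uncertain.

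Counts were rounded and tested with edgeR 4.0.16 (R 4.3.3) by quasi-likelihood over all 68745 rows with a summed count of 20 or more, with Benjamini-Hochberg adjustment over all of them, 1 mean per condition and all 9 libraries in 1 fit. A row was called at an adjusted p under 0.01 and a 2-fold change. Library sizes were the counts of all protein-coding genes times TMM factors, which were computed on 15267 of these genes. CPM uses the same sizes, and medians of log2 CPM use a prior count of 2. Separate sums and shares were compared with exact permutation tests (SciPy 1.17.1). The fit was tested on simulated data, where it returned the fold sizes on median but called few of the changed rows at the spread of these libraries, also with the rows of a gene summed, so counts of calls are low estimates. SDs are over the libraries of a condition and SEs come from the quasi-likelihood fit, so both include the spread between replicates. Floors (3 counts per library) cover counting error only. Members were named through the RefSeq gene table; position classes use its coordinates, and strand from the RefSeq start-site table.

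Named rows in the text were the 10 named rows of highest mean CPM, up to 10 named rows called higher and 5 called lower than both controls (none qualified), the 5 named rows with the largest rise of IgG RIP over input among those called, the 5 unnamed rows of highest mean CPM and the 5 with the largest rise over IgG RIP among those called higher than both controls, the coding genes beside them and 25 well-known noncoding genes; rows named for other reasons were chosen after their values were seen. The members and lists were chosen with earlier results of these data known. Alternatives were TMM over all rows, total counts, DESeq2 size factors, a filter of 0.5 CPM in 3 libraries, no filter, DESeq2 1.42.0, glmTreat, a replicate block, summing the rows of a gene, leaving out each library, a summed count of 100, a stricter gene match and leaving out the most abundant rows.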

Additional observations from a re-analysis of the deposited data

How the results depend on the processing

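Counts of called members depended strongly on the processing, while directions of the medians held. Counts are given in the order CELF2-KI RIP over IgG RIP higher and lower, CELF2-KI RIP over input higher and lower, IgG RIP over input higher and lower, and both controls higher and lower, where the reported values are 17, 37, 46, 9, 160, 5, 5 and 4. Summing rows of a gene gave 45, 180, 413, 30, 925, 24, 13 and 13. DESeq2's Wald test gave 98, 464, 1271, 61, 2273, 70, 36 and 41. The glmTreat test against 2-fold gave 0, 3, 1, 2, 10, 0, 0 and 0. With the replicate block the counts were 2, 6, 2, 2, 0, 0, 0 and 0; same-numbered libraries did not deviate together (correlations from −0.0586 to 0.059), so the numbers were not treated as pairs. Leaving out 1 library gave ranges of 3 to 20, 9 to 96, 2 to 147, 2 to 14, 0 to 459, 0 to 9, 1 to 6 and 1 to 6, with the highest values of each without IgG RIP replicate 3. The filter of 0.5 CPM moved 37 to 62, 46 to 71 and 160 to 246, and no filter moved the 5 members lower in IgG RIP than in input to 3. TMM over all rows gave 5 members higher in CELF2-KI RIP than in input, 19 lower in IgG RIP than in input and 2 higher than both controls; total counts gave 6 higher than input, 105 higher in IgG RIP than in input and 2 higher than both; DESeq2 size factors gave 6, 8 lower in IgG RIP than in input, and 1 higher than both. The causes of these changes were not tested, beyond fewer samples or fewer rows where the setting itself removes them.

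Median log2 fold changes over input, for named and unnamed members, were 0.50 and 0.26 (CELF2-KI RIP) and 0.74 and 0.50 (IgG RIP) with TMM over all rows, 0.79 and 0.55 with total counts in CELF2-KI RIP and 0.76 for unnamed members in IgG RIP, and 0.64 and 0.40 with DESeq2 size factors in CELF2-KI RIP and 0.78 for unnamed members in IgG RIP. These scalings also moved the median of all rows, from 0.24 to −0.50 for IgG RIP over input with TMM over all rows; relative to that median, named members lay 1.27 above in the reported scaling and 1.24 above in this one. Leaving out 1 library gave medians for named members of −0.64 to −0.15, 0.87 to 1.31 and 1.33 to 1.70, and for unnamed members of −0.61 to −0.14, 0.69 to 1.002 and 1.03 to 1.40, for CELF2-KI RIP over IgG RIP, CELF2-KI RIP over input and IgG RIP over input. The log2 ratio of named to unnamed counts differed by −0.56 to −0.41, 0.25 to 0.41 and 0.74 to 0.90 in that order, and reversed to 0.055 between the pull-downs when the median log2 CPM was used. The percent of counts differed by −0.681 to −0.469, 0.264 to 0.424 and 0.818 to 1.03 for named members and by −0.436 to −0.275, 0.373 to 0.534 and 0.765 to 0.874 for unnamed members. At row level the depth of the pull-downs limits rows near 3 counts per library.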
